A study of Homo sapiens with 6 samples.

Results

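The genes examined were the lactate dehydrogenase subunits LDHA and LDHB, and the monocarboxylate transporters SLC16A1, SLC16A3 and SLC16A7. With them were BSG, the chaperone of SLC16A1 and SLC16A3, and the mitochondrial pyruvate carrier subunits MPC1 and MPC2. These 8 genes were chosen by name from the 60664 genes of the RNA-seq table. All libraries came from 67R cells, a line derived from the lung adenocarcinoma line NCI-H1975 by growth in rising doses of ASK120067, a third-generation EGFR inhibitor. One group of 3 libraries came from cells given a negative control siRNA (siNC). The other group of 3 came from cells given an siRNA against BCAT1 (siBCAT1). BCAT1 is the cytosolic enzyme that reversibly moves the amino group of leucine, isoleucine and valine onto alpha-ketoglutarate. Both groups therefore share the resistant background of 1 derived line, and no parental library was analysed here. The methods list 2 siRNA sequences against BCAT1 and give the plain name siBCAT1 to the latter, while the labels do not say which was used. The study asked how BCAT1 acts on glycolysis in resistant cells, and the comparison here asks which RNAs of the lactate and pyruvate steps differed after the knockdown.

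Lactate dehydrogenase interconverts pyruvate and lactate in the cytosol and regenerates the NAD+ that glycolysis uses. It is a tetramer of LDHA and LDHB subunits, of which LDHA is classically linked to lactate formation and LDHB to lactate use. Lactate crosses the plasma membrane with a proton through MCT1 (SLC16A1), MCT2 (SLC16A7) and MCT4 (SLC16A3), and MCT4 is the form typical of highly glycolytic cells. Pyruvate enters mitochondria through a carrier made of MPC1 and MPC2, which are each needed for a working complex.

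The values are TPM, a measure of transcript level scaled for transcript length and for the size of the library, so levels of different genes can be compared within a library. Reads per library are not part of this table, so the depth behind each value is unknown. Library totals ran from 992512 to 995593 TPM, and 23152 to 25043 genes were above 0 in a library. Tests were run with limma on log2(TPM + 1) over the 14286 genes whose mean was 1 TPM or more. Fold changes are siBCAT1 minus siNC on that scale, which understates changes of low genes. A gene was called at a Benjamini-Hochberg adjusted p under 0.05 over all genes tested. The labels do not say that the libraries of a group came from separate cultures, so the p-values measure only the spread between these samples.

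The targeted gene separated the groups. BCAT1 was at 42.7, 42.2 and 29.8 TPM in the siNC libraries and at 8.78, 7.1 and 8.0 TPM in the siBCAT1 libraries, a log2 fold change of -2.12 (SE 0.15, limma adjusted p = 0.000272). Of the epithelial and lung adenocarcinoma markers, 5 of 10 were at 10 TPM or more in every library, led by the keratins KRT7 and KRT8. EPCAM was between 0.91 and 2.61 TPM, and the lung lineage markers NKX2-1, NAPSA and SFTPB were under 1 TPM in every library. The summed level of these 10 markers was 2564 to 2970 TPM in siNC and 1664 to 1952 TPM in siBCAT1 libraries, so the groups did not overlap. Most of that sum came from KRT7, KRT8 and KRT18. Their means were 922, 1225 and 462 TPM in siNC and 493, 887 and 365 TPM in siBCAT1. The means of KRT19 (91.3 and 33.9 TPM), EGFR (20.5 and 15.2 TPM) and CDH1 (19.7 and 3.1 TPM) were also lower in siBCAT1. That of EPCAM, close to the lower limit for testing, went up from 1.27 to 2.33 TPM. Of 8 markers of immune, fibroblast and endothelial cells, 5 were under 1 TPM in every library, while COL1A2 and CD68 were well detected. Mean levels in siNC and siBCAT1 libraries were 243 and 211 TPM for COL1A2, 15.8 and 9.41 TPM for COL1A1, and 33.3 and 54.9 TPM for CD68, so they differed in opposite directions within a sum of 277.1 to 304.1 TPM in siNC and 246.4 to 294.8 TPM in siBCAT1. The part that either marker sum has in the results below was not tested.

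Of the 8 genes, 2 were called lower after BCAT1 knockdown, LDHA and SLC16A3, against 10.4% of all genes tested. No member was called higher, against 16.7% of all genes. At an unadjusted p under 0.05, limma gave 3 members lower and 1 higher. Both called members also changed by at least 0.5 on the log2 scale, as did 6.21% of all genes in that direction. The groups did not overlap for 4 members that were lower (18.0% of all genes) and for 1 that was higher (26.1% of all genes). The median log2 fold change was -0.14 over the members and 0.04 over all genes. The called genes were thus 1 subunit of the dehydrogenase and 1 exporter, while the chaperone and the pyruvate carrier were not called.

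Levels spanned a wide range in both groups. In siNC cells LDHA had the highest mean level, 2506 TPM, followed by LDHB at 1160.2 TPM and BSG at 1150.0 TPM, whose libraries overlapped. SLC16A3 (263 TPM), SLC16A1 (77.5 TPM), MPC1 (47.4 TPM), MPC2 (34.2 TPM) and SLC16A7 (1.44 TPM) followed, each with all libraries below those of the gene before it. In siBCAT1 cells the order was LDHA (1402 TPM), BSG (1141 TPM), LDHB (1089.5 TPM), SLC16A3 (164 TPM), SLC16A1 (68.3 TPM), MPC1 (40.7 TPM), MPC2 (40.0 TPM) and SLC16A7 (1.98 TPM). There the libraries of MPC1 and MPC2 overlapped, and the libraries of BSG lay just above those of LDHB.

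The promoter sequences of the called members are shown beside that of LDHB, the partner subunit that was not called. They are the 250 bases before a RefSeq start site in GRCh38.p14, written 5′ to 3′ on the gene's strand. Capitals mark ACGTG or GCGTG on either strand, the cores of hypoxia response elements. CACGTG, the E-box bound by MYC and MAX, holds ACGTG on both strands, and overlapping matches were counted as 1 place.
LDHA, chr11:18394313-18394562, plus strand: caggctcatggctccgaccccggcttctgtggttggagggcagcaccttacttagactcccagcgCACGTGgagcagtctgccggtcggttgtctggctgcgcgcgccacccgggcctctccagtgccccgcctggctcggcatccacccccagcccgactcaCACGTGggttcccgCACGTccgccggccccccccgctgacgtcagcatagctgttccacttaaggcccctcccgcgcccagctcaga
SLC16A3, chr17:82228792-82229041, plus strand: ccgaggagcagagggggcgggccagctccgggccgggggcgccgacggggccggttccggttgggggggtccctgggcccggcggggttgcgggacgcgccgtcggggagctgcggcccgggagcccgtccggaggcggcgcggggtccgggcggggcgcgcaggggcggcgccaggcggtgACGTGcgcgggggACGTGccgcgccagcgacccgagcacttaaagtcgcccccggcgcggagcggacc
LDHB, chr12:21657843-21658092, minus strand: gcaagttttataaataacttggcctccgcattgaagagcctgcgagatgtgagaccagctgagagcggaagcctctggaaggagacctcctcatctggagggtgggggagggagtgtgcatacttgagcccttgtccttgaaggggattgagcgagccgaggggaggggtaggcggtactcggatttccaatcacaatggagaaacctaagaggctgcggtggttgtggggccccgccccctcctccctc

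The LDHA stretch held 3 marked places, whose first bases lay 185, 87 and 73 bases before the start, and the first pair of these were CACGTG. Of 35116 RefSeq windows of 300 bases (250 before and 50 after a start), 21.4% held ACGTG, 36.5% GCGTG, 48.4% either core, 7.26% CACGTG and 0.487% ACGTG at 3 or more places. The SLC16A3 stretch held ACGTG 68 and 55 bases before the start, and 3.4% of windows held it at 2 or more places. The LDHB stretch held none of these words, and its window had 1 GCGTG after the start. LDHA has another window, with 1 GCGTG, and SLC16A3 has 5 windows in all. The ones shown were chosen because they hold ACGTG. The cutoffs of 2 and 3 places equal the counts in these chosen windows, so their shares do not measure how rare such windows are. Windows were found for 7 of the 8 members (16 windows, 10 with either core and 2 with CACGTG), and SLC16A1 had no entry. The MPC2 windows with starts at 167937069 and 167937072 overlap and hold the same GCGTG, so that place enters the 10 more than once. BSG, which was not called, held CACGTG 193 bases before a start and GCGTG 166, 132, 122 and 61 bases before it. MPC1, also not called, held GCGTG 162 and 70 bases before its start. These words were therefore not particular to the called members. A match describes letters only, and binding was not measured.

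LDHA (ENSG00000134333, chromosome 11, 18394388 to 18408425, plus strand, GENCODE 29 on GRCh38) encodes the muscle-type subunit. It was at 2599.6, 2526 and 2394 TPM in siNC cells and at 1404, 1502 and 1299.6 TPM in siBCAT1 cells. Every siBCAT1 library lay below every siNC library, and the siBCAT1 mean was 55.9% of the siNC mean. The log2 fold change was -0.84 (95% interval -0.98 to -0.70, limma adjusted p = 0.000267), 547th from the lowest among 14286 genes and 85th by p. Many genes thus had a larger fall, and few had a smaller p. In bulk RNA, less LDHA RNA in each cell and fewer cells with high LDHA cannot be told apart, here and for the other members.

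LDHB (ENSG00000111716, chromosome 12, 21635342 to 21757857, minus strand) encodes the heart-type subunit. It was at 1131, 1223 and 1127 TPM in siNC cells and at 1069, 1097 and 1103 TPM in siBCAT1 cells. All siBCAT1 values were lower, but the gap was small beside that of LDHA, and the log2 fold change of -0.09 (95% interval -0.19 to 0.02, limma adjusted p = 0.183) was not called. The interval for LDHB lay wholly above that for LDHA.

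The ratio of LDHA to LDHB within a library does not depend on any factor that scales a whole library. It was 2.30, 2.07 and 2.12 in siNC libraries and 1.31, 1.37 and 1.18 in siBCAT1 libraries, so it was 2.16 ± 0.121 (SD, n = 3) against 1.29 ± 0.0982 (SD, n = 3). The difference of the log2 ratios was -0.75 with no overlap (two-sided exact permutation p = 0.1, the smallest that 3 against 3 libraries allow, and 0.1 after adjustment over 6 ratios). LDHA made up 69.7%, 67.4% and 68.0% of the summed LDHA and LDHB level in siNC libraries and 56.8%, 57.8% and 54.1% in siBCAT1 libraries. LDHA remained the more abundant subunit RNA in every library.

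The summed level of both subunits was 3731, 3749 and 3520.2 TPM in siNC cells and 2473, 2599 and 2402 TPM in siBCAT1 cells. The group means differed by -1105 TPM for LDHA and -70.7 TPM for LDHB, so LDHA accounted for 94.0% of the difference in the sum. As a share of the library total, the sum was 0.369% ± 0.0124 (SD, n = 3) in siNC and 0.25% ± 0.00982 (SD, n = 3) in siBCAT1 cells. Pseudogenes hardly entered these sums, since the 6 annotated LDHA pseudogenes in the table added up to 0.25 to 3.16 TPM per library and the 3 of LDHB to at most 0.08 TPM. How reads shared with these copies were assigned is not given in the sources used here.

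SLC16A3 (ENSG00000141526, chromosome 17, 82228397 to 82261129, plus strand) encodes MCT4, a lactate exporter. It was at 255, 298 and 236 TPM in siNC cells and at 165, 172 and 154 TPM in siBCAT1 cells. All siBCAT1 libraries were lower, with a mean of 62.3% of that in siNC cells. The log2 fold change was -0.68 (95% interval -0.89 to -0.46, limma adjusted p = 0.00249), which ranked 828th from the lowest and 730th by p. Its interval overlapped that of LDHA.

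SLC16A1 (ENSG00000155380, chromosome 1, 112911847 to 112957013, minus strand) encodes MCT1, which carries lactate in either direction. Its levels were 78.0, 84.9 and 69.8 TPM in siNC cells and 71.5, 69.1 and 64.2 TPM in siBCAT1 cells. The groups overlapped, and the log2 fold change of -0.18 (95% interval -0.38 to 0.03, limma adjusted p = 0.172) was not called. SLC16A7 (ENSG00000118596, chromosome 12, 59596067 to 59789855, plus strand), which encodes the high-affinity transporter MCT2, was close to the lower limit for testing. It was at 1.72, 1.54 and 1.07 TPM in siNC cells and at 1.67, 2.62 and 1.66 TPM in siBCAT1 cells. The groups overlapped, and the log2 fold change of 0.28 had a 95% interval of -0.22 to 0.78 (limma adjusted p = 0.368), the widest among the members.

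BSG (ENSG00000172270, chromosome 19, 571277 to 583493, plus strand) encodes basigin, the membrane glycoprotein that brings MCT1 and MCT4 to the cell surface. It was at 1135, 1114 and 1201 TPM in siNC cells and at 1187, 1109 and 1128 TPM in siBCAT1 cells. The values were interleaved, and the log2 fold change was -0.01 (95% interval -0.12 to 0.10, limma adjusted p = 0.887), which turned to 0.04 under quantile normalization. A change of BSG as large as that of SLC16A3 lies outside this interval.

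The balance between the transporters was also set side by side within each library. The ratio of SLC16A3 to SLC16A1 was 3.27, 3.51 and 3.38 in siNC libraries and 2.30, 2.50 and 2.40 in siBCAT1 libraries, a log2 difference of -0.50. The ratio of BSG to the sum of SLC16A1 and SLC16A3 was 3.41, 2.91 and 3.92 in siNC and 5.03, 4.59 and 5.17 in siBCAT1 libraries, a log2 difference of 0.54. SLC16A7 was 0.0185 ± 0.00338 (SD, n = 3) of SLC16A1 in siNC and 0.0290 ± 0.00778 (SD, n = 3) in siBCAT1 cells. SLC16A3 was therefore the most abundant of the 3 transporter RNAs in all libraries, by a margin that was smaller in siBCAT1 cells. None of these ratios overlapped between groups, and each had the smallest two-sided exact permutation p of 0.1. Among single genes, 18.0% did not overlap and were lower, and 26.1% did not overlap and were higher. The ratios that hold SLC16A3 also carry its own fall. SLC16A1 and SLC16A7 each overlapped between groups, and SLC16A7 was close to the lower limit for testing.

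MPC1 (ENSG00000060762, chromosome 6, 166364919 to 166383013, minus strand) and MPC2 (ENSG00000143158, chromosome 1, 167916729 to 167937040, minus strand) encode the partners of the pyruvate carrier of the inner mitochondrial membrane, and their values lay on opposite sides of 0. MPC1 was at 44.4, 50.9 and 46.9 TPM in siNC cells and at 43.2, 38.9 and 40.0 TPM in siBCAT1 cells. MPC2 was at 33.5, 32.8 and 36.2 TPM in siNC cells and at 39.3, 41.0 and 39.8 TPM in siBCAT1 cells. The groups overlapped for neither gene. The log2 fold change was -0.22 for MPC1 (95% interval -0.40 to -0.03, limma adjusted p = 0.0845) and 0.22 for MPC2 (95% interval 0.06 to 0.39, limma adjusted p = 0.051), so both missed the threshold.

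The ratio of MPC1 to MPC2 was 1.33, 1.55 and 1.30 in siNC libraries and 1.10, 0.947 and 1.01 in siBCAT1 libraries. It was 1.39 ± 0.14 (SD, n = 3) against 1.02 ± 0.0766 (SD, n = 3), a log2 difference of -0.44 without overlap (two-sided exact permutation p = 0.1). MPC1 RNA thus exceeded MPC2 RNA in every siNC library, and the levels were nearly equal in siBCAT1 cells. LDHA, which sends pyruvate to lactate, was 77.6, 77.0 and 66.2 times the level of MPC2 in siNC and 35.7, 36.6 and 32.7 times in siBCAT1 libraries.

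**Figure D1:**
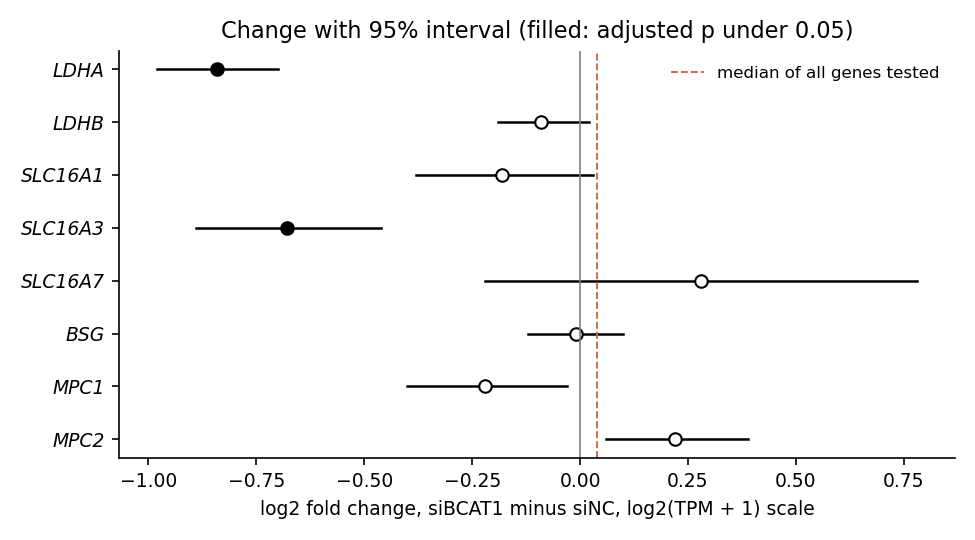
Log2 fold change of each gene (siBCAT1 minus siNC, limma on log2(TPM + 1), n = 3 against 3) with its 95% interval, filled where the adjusted p was under 0.05, and a dashed line at the median of all genes tested (0.04). LDHA (-0.84) and SLC16A3 (-0.68) are the filled points, and the intervals of MPC1 and MPC2 lie on opposite sides of 0.

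LDHA and SLC16A3 stayed called in all 14 alternative analyses. When values were corrected for GC content and gene length, LDHB (adjusted p = 0.0342), SLC16A1 (adjusted p = 0.0499) and MPC1 (adjusted p = 0.024) were also called lower by limma, which made 5 members, against 13.2% of all genes under that correction. Over all alternatives the adjusted p ran from 0.0212 to 0.688 for LDHB, from 0.0416 to 0.374 for SLC16A1 and from 0.024 to 0.218 for MPC1. Restricting the test to genes whose mean reached 5 TPM made MPC2 called higher (limma adjusted p = 0.0426), with a range of 0.0426 to 0.226 over the alternatives. Under that filter 21.7% of all genes were called higher, against 16.7% in the main test.

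Some members share their locus with other genes. CSNK1D lies opposite SLC16A3 (means of 103 and 85.7 TPM for siNC and siBCAT1), DCAF6 opposite MPC2 (25.6 and 29.7 TPM) and an antisense RNA opposite BSG (16.7 and 21.6 TPM). The antisense RNAs opposite SLC16A1 and LDHB were at most 6.2 and 4.85 TPM in any library. The library kit marks strand, but whether it was used in counting is not given in the sources used here, so how reads of such pairs were divided is uncertain.

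Genes around these steps were followed through 7 lists of 69 genes, of which 48 were tested, 7 were called lower and 8 higher. These were 14.6% and 16.7% of the tested list genes, beside 10.4% and 16.7% of all genes, so the higher count was at the background and each short list below is to be read against these shares. Among other lactate dehydrogenase genes, 1 of 3 tested was called, LDHC, the testis form, whose mean was 7.8 TPM after siNC against 11.2 TPM after siBCAT1 (log2 fold change 0.48, limma adjusted p = 0.038). Among other monocarboxylate transporters and EMB, 3 of 14 were tested, SLC16A5, SLC16A13 and EMB, and limma called none of them, nor did any reach an unadjusted p under 0.05 (the lowest was 0.289). EMB, the embigin chaperone that serves MCT2, had means of 10.5 ± 1.19 and 9.51 ± 0.666 TPM (SD, n = 3) after siNC and siBCAT1.

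Of 11 tested genes of the pyruvate dehydrogenase complex and its regulators, 1 was called lower and 1 higher. Some not called also differed: PDK2 (log2 fold change -0.52, limma adjusted p = 0.102), PDK3 (-0.41, 0.0907) and the subunit DLAT (0.27, 0.057), named after their values were seen. PDK1, a kinase that inactivates the complex, had a mean of 13.7 TPM after siNC and of 8.54 TPM after siBCAT1 (log2 fold change -0.64, limma adjusted p = 0.032), and PDHA1, a catalytic subunit, was at 447 and 523 TPM (log2 fold change 0.23, limma adjusted p = 0.00987). Of 7 other tested enzymes that make or use pyruvate or its close products, 2 were called lower and 3 higher. The furthest were PC, which carboxylates pyruvate to oxaloacetate (log2 fold change -0.40, limma adjusted p = 0.0462), and PCK2, the mitochondrial phosphoenolpyruvate carboxykinase, which went from 20.4 to 60.8 TPM (log2 fold change 1.53, limma adjusted p = 0.000849). PKM also fell (log2 fold change -0.37), and ME1 (0.77) and GPT2 (0.74) also rose, and these 3 were named after their values were seen.

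The cytosolic NADH that lactate dehydrogenase uses is also handled by the malate-aspartate and glycerol phosphate shuttles. Of their 9 tested genes, MDH1, the cytosolic malate dehydrogenase, fell from 131 to 103 TPM (log2 fold change -0.34, limma adjusted p = 0.00595). SLC25A11, the malate and alpha-ketoglutarate exchanger, rose from 52.9 to 71.3 TPM (log2 fold change 0.42, limma adjusted p = 0.00636). Of 7 tested genes that handle acid and bicarbonate, 2 were called lower and none higher. CA9, a cell surface carbonic anhydrase induced by hypoxia, went from 27.8 to 8.62 TPM (log2 fold change -1.62, limma adjusted p = 0.00399). The other was SLC4A2, an anion exchanger (log2 fold change -0.50), named after its value was seen.

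The lactate receptor HCAR1 was too low to be tested. Of the 8 tested genes listed with it, which are linked to lactate signalling or to LDHA transcription, 1 was called lower and 2 higher. HIF1A, the hypoxia-inducible subunit that drives LDHA, SLC16A3 and CA9 in low oxygen, fell from 151 to 93.4 TPM (log2 fold change -0.68, limma adjusted p = 0.00195). MYC, another activator of LDHA, rose from 534 to 721 TPM (log2 fold change 0.43, limma adjusted p = 0.0209), and its partner MAX also rose (0.34, named after its value was seen). Only RNA was measured in these libraries, and whether these RNA changes bear on LDHA, SLC16A3 or CA9 was not tested. The called genes of this list thus lay in both directions, at 12.5% lower and 25.0% higher of those tested. Beside them stand 10.4% and 16.7% of all genes, and the other tested genes of the list were not called. Some list calls were less firm. Of 14 alternative analyses, PDHA1 was called in 12, MYC in 11 (limma adjusted p = 0.0667 without siNC replicate 1), PDK1 in 8, PC in 6 and LDHC in 5. Leaving out any library other than siBCAT1 replicate 2 ended the call of PDK1, any other than siNC replicate 2 that of PC, and any other than siNC replicate 1 that of LDHC, with adjusted p up to 0.0937, 0.134 and 0.12 from limma.

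Profiles over the 6 libraries were compared by the root mean square distance of centred log2(TPM + 1) values, which also counts the difference between groups that all close genes share. The 5 genes closest to LDHA were KRTAP21-3, a keratin-associated protein, TRAM2, NEK6, a mitotic kinase, DUSP4, a MAPK phosphatase, and TRIM16L, at distances of 0.0428 to 0.0567. Their log2 fold changes ran from -0.91 to -0.74. The 5 closest to SLC16A3 were TWF1 and AHNAK, which bind the cytoskeleton or membrane, TCF7, a Wnt pathway factor, NMU, a neuropeptide, and MROH6, at 0.0398 to 0.0556. TCF7 (means of 4.0 TPM in siNC and 2.17 TPM in siBCAT1), NMU (3.91 and 2.22 TPM) and MROH6 (1.7 and 0.62 TPM) were low genes. KRTAP21-3 was also low (6.45 and 3.24 TPM). The added 1 TPM shrinks changes of low genes, so their distances depend in part on that scale. SLC16A3 was the 99th closest gene to LDHA, and LDHA the 124th closest to SLC16A3, with a distance of 0.12. LDHB was the 3984th closest to LDHA, and MPC1 the 2521st, so among the members SLC16A3 was the nearest to LDHA over these libraries. LDHA and SLC16A3 were the only called members, so this order largely restates their fold changes.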

How the data were processed

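RNA-seq of 3 siNC and 3 siBCAT1 libraries of 67R cells was used. Libraries were made with a stranded mRNA kit. Per the labels and the study's methods, the authors trimmed reads with fastp, mapped them with HISAT2 to GRCh38 and quantified them with StringTie, and versions and the annotation release are not given in the sources used here. The deposited values are TPM per gene, so no count test was run. Groups and replicate numbers were taken from the sample titles.

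Genes whose mean was 1 TPM or more were tested on log2(TPM + 1) with limma 3.58.1 in R 4.3.3 (trended empirical Bayes, two-sided, Benjamini-Hochberg adjustment). Log2 ratios of TPM + 1 within a library were compared by exact permutation tests, and printed ratios have no pseudocount. The scripts were tested on simulated data. Gene positions and transcripts came from GENCODE 29, with GC content for 99% of tested genes, and promoters from RefSeq. Named genes were BCAT1, the members, the summed pseudogenes of LDHA and LDHB, the furthest called gene of each list in each direction, and the 5 profiles closest to LDHA and to SLC16A3. One list gene is not reported here. The members and lists were chosen with earlier results of these data known. Alternatives changed the filter, pseudocount, scaling, GC and length correction, replicate block, a minimum fold and each library. Within a group, 98.6% to 99.0% of tested genes differed between any pair of libraries, so none was a copy. No sequencing batch is given in the labels.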

Additional observations from a re-analysis of the deposited data

How the results depend on the processing

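LDHA and SLC16A3 were called lower in all 14 alternatives, with log2 fold changes of -0.92 to -0.76 and -0.77 to -0.58, and the 6 ratios kept their direction in the alternatives run for them (pseudocounts, each library left out, replicate block, quantile normalization and, for LDHA/LDHB, added pseudogenes). The ratios were not recomputed with GC and length correction. Quantile normalization of the ratios was chosen after seeing the data. The count of members called lower went from 2 to 5 with GC and length correction, and to 5 with that correction and the replicate block, which added LDHB, SLC16A1 and MPC1, while the share of all genes called lower went from 10.4% to 13.2% and 14.5%. MPC1 was also called under quantile normalization (adjusted p = 0.0272 from limma), where 13.1% of all genes were called lower. The count called higher went from 0 to 1, MPC2, with a mean of at least 5 TPM, where SLC16A7 was not tested. The share of all genes called higher went from 16.7% to 21.7% there. BSG changed sign under quantile normalization (0.04), without siNC replicate 3 (0.02) and without siBCAT1 replicate 2 (0.01), and ran from -0.04 to 0.02 as each library was left out, never called. The cause of these shifts was not tested. Over all genes, 1483 were called lower and 2382 higher, 1802 and 1957 with median-ratio scaling, 1865 and 2042 with quantile normalization, 960 and 1607 with no filter on low values, 859 lower without siNC replicate 1, 958 without siBCAT1 replicate 2, 987 without siBCAT1 replicate 3, and 1501 higher without siBCAT1 replicate 1.

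Replicate numbers were not taken as pairs, since the labels do not say that they mark pairs. The deviations of same-numbered libraries correlated at 0.0844, 0.102 and 0.124, and those of other pairs at -0.0814 to -0.0134. Every library correlated best with its own number, as a hint from the data. Deviations cancel out within a group, so these values are not independent and cannot settle the pairing. The replicate block gave 1795 genes lower and 2773 higher, and 2 members lower and 0 higher as without it. At an unadjusted p under 0.05, limma without the block gave 3 and 1, a level that many of all genes also passed. With 3 libraries a group the exact tests could not go below 0.1, and the depth is unknown.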

Other observations

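The siRNA that the methods name siBCAT1 pairs through its seed, bases 2 to 8 of the guide strand, with the word TTGAGCA in a transcript. No annotated transcript of LDHA (25 transcripts), LDHB (10), SLC16A3 (22), BSG (16), MPC1 (7) or MPC2 (3) held this word on the sense strand. It was present in 2 of 7 transcripts of SLC16A1 and in 6 of 16 of SLC16A7, and 31.6% of 11818 tested protein-coding genes held it in at least 1 transcript. The other listed siRNA has the corresponding word AGACAAT, found in 2 transcripts of LDHB and 2 of SLC16A7 and in 25.4% of genes, and in none of LDHA or SLC16A3. Seed words describe letters only, and an effect through them was not tested.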
